A study of Sus scrofa with 6 samples.

Results

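Transcript levels of 10 genes that make, sense or break down prostaglandins were followed from porcine embryonic fibroblasts (PEFs) to the induced pluripotent stem cells (piPSCs) made from them. The members were taken by gene symbol from a table of 18007 genes, and all 10 were found. They are the cyclooxygenase genes PTGS1 and PTGS2, the prostaglandin synthase genes PTGES, PTGES2, PTGES3 and PTGIS, the receptor genes PTGER2, PTGER4 and PTGFR, and the breakdown gene HPGD. PEF5, PEF7 and PEF8 were fibroblast lines from the ear tip of embryos at day 90, from a Large White boar and a Meishan sow. piPSC5, piPSC7 and piPSC8 were derived from the like-numbered PEF lines after lentiviral transduction with doxycycline-dependent Oct4, Sox2, Klf4 and c-Myc. Colonies arose in LF2i medium and were picked and grown on mouse feeder cells, and the factors remained under the control of doxycycline. RNA was sequenced as 1 library per line, so that each group held 3 lines (n = 3), no line had a replicate of its own, and the spread within a group is that between lines. Totals ran from 15146576 to 17836510 fragments per PEF library and from 11010629 to 15050204 per piPSC library. Levels are given as FPKM, fragments scaled to transcript length and library total, which can be set against each other between genes.

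Prostaglandins are lipid signals made on demand from arachidonic acid, which phospholipase A2 releases from membranes. Cyclooxygenase, in a constitutive (PTGS1) and an inducible (PTGS2) form, turns it into prostaglandin H2, and terminal synthases then make prostaglandin E2 (PGE2), prostacyclin and the other prostanoids. These act through G protein-coupled receptors on the same or nearby cells, and 15-hydroxyprostaglandin dehydrogenase (HPGD) inactivates them. Fibroblasts are a known source of PGE2 in connective tissue, where PTGS2 and PTGES are induced together by inflammatory cytokines.

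The labels of the cells were checked first against marker genes. Of 12 fibroblast markers, 11 were lower in piPSCs, and the summed level of the list ran from 4709 to 6644 FPKM in PEFs and from 132 to 233 FPKM in piPSCs. None of the 12 was at 0 in all piPSC libraries, and COL3A1 still had 94.2 to 125 FPKM there. The 9 pluripotency and epithelial markers found by symbol summed to between 11.2 and 36.6 FPKM in PEFs and between 6.998 and 10.5 FPKM in piPSCs. POU5F1, LIN28A and TDGF1 of this list were not found. The one call in this list was CLDN6, a claudin of epithelial and early embryonic cells, which was lower in piPSCs, with 16.6, 10.99 and 36.2 FPKM in PEF5, PEF7 and PEF8 and 1.43, 7.55 and 0.365 FPKM in piPSC5, piPSC7 and piPSC8 (limma adjusted p = 0.0206). CLDN6 made up nearly all of the PEF sum of the list. SOX2 rose from 0, 0.00941 and 0.0208 FPKM in PEF5, PEF7 and PEF8 to 3.01, 2.49 and 0.129 FPKM in piPSC5, piPSC7 and piPSC8. LIN28B rose from 0.0104, 0.0111 and 0.0367 FPKM to 2.51, 0.281 and 8.90 FPKM in the same order. Neither rise was called (limma adjusted p = 0.0626 and 0.0667). NANOG, ESRRB, EPCAM, CDH1 and SALL4 stayed under 0.12 FPKM in each piPSC library, and UTF1 was at 0. These genes were too low to be tested. The 7 macrophage and leucocyte markers found summed to between 10.8 and 23.7 FPKM in PEFs and between 1.10 and 3.26 FPKM in piPSCs. CD14 made up most of the PEF sum, with 9.20, 21.9 and 13.1 FPKM in PEF5, PEF7 and PEF8. It was called lower, with 0.239, 0.110 and 0.238 FPKM in piPSC5, piPSC7 and piPSC8. TYROBP, MRC1 and CD163 were at 0 in all piPSCs, but had at most 1.30 FPKM in any PEF library. The means of CSF1R, CD68 and AIF1 were higher in piPSCs. Only CD14 and CD68 of this list were tested, and CD68 was not called (limma adjusted p = 0.620). Summed levels were 52.9 to 171 FPKM in PEFs and 1.91 to 21.8 FPKM in piPSCs for smooth muscle markers, and 0.818 to 12.4 against 0.224 to 0.230 FPKM for cartilage markers. Endothelial markers summed to between 0.513 and 2.59 FPKM in PEFs and between 0.0614 and 1.17 FPKM in piPSCs, and keratinocyte markers to between 3.04 and 3.35 and between 4.74 and 9.12 FPKM. In bulk RNA of this kind, fewer cells of a type and less RNA per cell cannot be told apart. The part of any of these cells, or of the mouse feeder cells, in the results was not tested. DDX3Y, a gene of the Y chromosome, had 3439 fragments in PEF8 and 4207 in piPSC8 and 0 in the libraries of lines 5 and 7, whereas the study describes all of its PEF lines as male. Each line stood in both groups.

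The DNA just upstream of the PTGS1, PTGS2 and PTGES genes is shown because these genes of PGE2 synthesis were called lower in piPSCs. Each stretch holds the 250 bases before the 5′ end of the RefSeq gene on Sscrofa11.1, written 5′ to 3′ on the strand of the gene. PTGS1 lies at chr1:262455856-262456105 on the plus strand, PTGS2 at chr9:127858867-127859116 on the minus strand, and PTGES at chr1:269924482-269924731 on the minus strand. The gene model of PTGS2 in the files starts farther upstream than the RefSeq gene and takes in the whole of this window. Capitals mark matches, on either strand, to short motifs, which were the TATA box TATAAA, the core CGTCA of the cyclic AMP response element, its full form TGACGTCA, the AP-1 site TGANTCA, the E-box CACGTG, the GC box GGGCGG, the CCAAT box and the consensus site of NF-kB.
PTGS1: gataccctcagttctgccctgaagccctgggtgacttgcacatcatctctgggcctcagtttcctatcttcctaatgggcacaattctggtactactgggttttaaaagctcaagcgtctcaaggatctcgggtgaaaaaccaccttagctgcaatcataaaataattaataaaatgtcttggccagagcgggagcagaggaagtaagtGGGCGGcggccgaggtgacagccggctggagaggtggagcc
PTGS2: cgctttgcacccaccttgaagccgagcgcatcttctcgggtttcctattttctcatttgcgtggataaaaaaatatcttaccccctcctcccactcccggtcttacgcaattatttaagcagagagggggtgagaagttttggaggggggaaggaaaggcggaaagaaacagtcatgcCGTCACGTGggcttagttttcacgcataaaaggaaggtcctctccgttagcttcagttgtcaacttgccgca
PTGES: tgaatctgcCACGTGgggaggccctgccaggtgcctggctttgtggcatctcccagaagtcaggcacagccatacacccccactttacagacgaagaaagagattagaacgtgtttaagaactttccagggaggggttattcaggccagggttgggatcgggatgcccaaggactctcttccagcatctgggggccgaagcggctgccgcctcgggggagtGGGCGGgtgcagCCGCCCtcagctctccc
PTGS2 carried CGTCA beginning 72 bases upstream of the start and CACGTG beginning 69 bases upstream, so that the 2 matches share bases. Over 19556 RefSeq protein-coding promoters of the same length, CGTCA was found in 19.6% and CACGTG in 6.39%. PTGES carried CACGTG beginning 241 bases upstream and GGGCGG beginning 29 and 17 bases upstream. PTGS1 carried GGGCGG beginning 41 bases upstream, a motif present in 45.9% of the promoters. The window of PTGS1 and that of PTGES had a GC content of 51.2% and 60.8%, and that of PTGS2 49.6%. No match to the TATA box (9.77% of promoters), the full cyclic AMP response element (1.70%), the AP-1 site (5.27%), the CCAAT box (31.9%) or the NF-kB consensus (14.0%) lay in the 3 windows, which says only that these letters are not there. The matches are a description of sequence, and binding was not measured here.

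The comparison of piPSCs with PEFs asked which steps of the pathway differed between the groups. The cell state and the culture of the piPSCs, with feeder cells and doxycycline, go together in this design and cannot be told apart. Limma was fitted to log2(FPKM + 1) over 12428 genes with a mean of at least 0.5 FPKM, and a call needed both a 2-fold difference and an adjusted p under 0.05. The added 1 FPKM understates the change of any gene that is low in either group, so the sizes of change cannot be ranked between genes. Of the 10 members, 8 were tested, of which 4 were called lower in piPSCs (PTGS1, PTGS2, PTGES and PTGFR), 1 higher (PTGES3) and 3 not called (PTGES2, PTGER2 and PTGER4). PTGIS and HPGD were too low to be tested. Over all tested genes, 36.8% were called, 16.7% lower and 20.2% higher. The median log2 fold change was -1.59 over the 8 tested members and 0.20 over all tested genes.

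**Figure D1:**
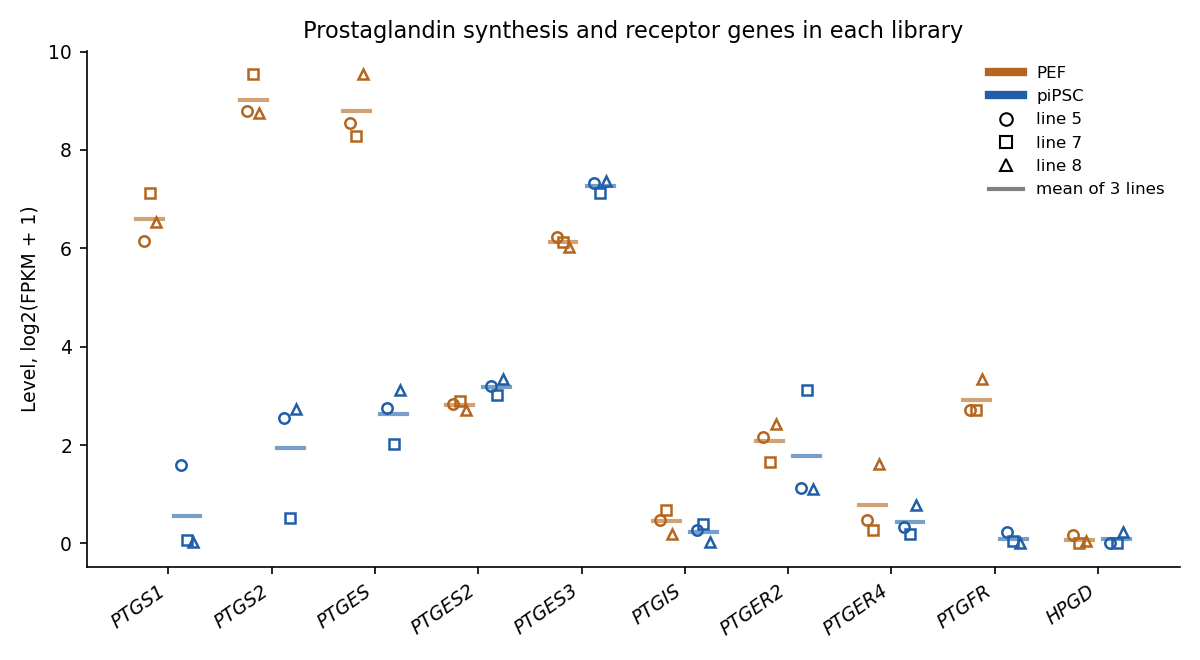
Level of each of the 10 genes as log2(FPKM + 1) in each library, with PEFs in brown, piPSCs in blue, a symbol for each line and a bar at the mean of 3 lines. PTGS1, PTGS2, PTGES and PTGFR lie lower in every piPSC library than in any PEF library, PTGES3 lies higher, and the level of PTGER2 in piPSC7 stands above that of every other library.

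Both cyclooxygenase genes fell to a small fraction of their fibroblast level. PTGS1, the constitutive enzyme (ENSSSCG00000005533, Sscrofa11.1 chromosome 1 from 262456220 to 262484227), had 70.4, 138 and 91.8 FPKM in PEF5, PEF7 and PEF8 and 2.00, 0.0543 and 0.0195 FPKM in piPSC5, piPSC7 and piPSC8. The groups were far apart, and the piPSC libraries differed among themselves, with most of what remained in piPSC5. This was a log2 fold change of -6.04 (SE 0.47, 95% interval -7.17 to -4.91, limma adjusted p = 0.00034). The PEF values rested on 5835, 10709 and 6463 fragments, and the piPSC values on 140, 3 and 1.

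PTGS2, the inducible enzyme (ENSSSCG00000015579, chromosome 9 from 127848603 to 127859287), was among the most abundant transcripts of the fibroblasts. It had 440, 742 and 428 FPKM in PEF5, PEF7 and PEF8, ranking 91, 54 and 93 from the top of 18007 genes. It had 4.86, 0.436 and 5.63 FPKM in piPSC5, piPSC7 and piPSC8, at ranks 7484, 11972 and 6661. No piPSC value came near a PEF value, and piPSC7, the lowest, came from the line with the highest fibroblast level. Limma gave a log2 fold change of -7.09 (SE 0.60, 95% interval -8.52 to -5.66, adjusted p = 0.000414). The PEF mean was 147 times the piPSC mean for PTGS2 and 145 times for PTGS1. Voom on the recovered fragments gave -7.77 for PTGS2 and -9.19 for PTGS1, the reverse order.

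The balance of both cyclooxygenases ranged less widely in the fibroblasts than in the piPSCs. The level of PTGS2 was 6.25, 5.38 and 4.67 times that of PTGS1 in PEF5, PEF7 and PEF8. The exact 95% counting intervals were 6.08 to 6.42, 5.27 to 5.49 and 4.54 to 4.79, so the PEF lines also differed beyond counting error. In piPSC5 it was 2.43 times (exact 95% counting interval 2.00 to 2.96), in piPSC7 8.03 times (2.49 to 41.2) and in piPSC8 288 times (51.4 to 11418), the last resting on 1 fragment of PTGS1. The intervals of piPSC5 and piPSC8 do not meet, while that of piPSC7 takes in the PEF ratios. As log2((PTGS2 + 1)/(PTGS1 + 1)), the ratio was 2.42 ± 0.21 in PEFs and 1.37 ± 1.18 in piPSCs (SD, n = 3; exact two-sided permutation test, p = 0.4, where 0.1 is the smallest p that 3 lines against 3 allow). That test asks about the difference in means, not the spread. The direction of this difference turned with a pseudocount of 0.1, where it was 0.44 in place of -1.05.

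Of the 3 PGE synthase genes, the inducible PTGES fell and the other pair did not. PTGES, microsomal PGE synthase-1, which works coupled to PTGS2 (ENSSSCG00000005688, chromosome 1 from 269911793 to 269924481), had 375, 312 and 743 FPKM in PEF5, PEF7 and PEF8 and 5.70, 3.03 and 7.63 FPKM in piPSC5, piPSC7 and piPSC8. PEF8 was the highest of the fibroblasts and piPSC8 the highest of the piPSCs, and the groups did not overlap. On the log2 scale the difference was -6.17 (SE 0.41, 95% interval -7.14 to -5.20, limma adjusted p = 0.000217), on 6079 to 13125 fragments in PEFs and 42 to 100 in piPSCs.

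PTGES3, the cytosolic synthase that is also known as the HSP90 co-chaperone p23 (ENSSSCG00000000406, chromosome 5 from 22000340 to 22021662), moved the other way. It had 74.2, 69.4 and 64.1 FPKM in the PEF lines and 160, 139 and 164 FPKM in the piPSC lines of the same order. All piPSC values lay above all PEF values, and the spread within each group was small, with means of 69.3 ± 5.05 and 154 ± 13.4 FPKM (SD, n = 3). It rose by 1.14 on the log2 scale (SE 0.14, 95% interval 0.81 to 1.48, limma adjusted p = 0.00119). Median-ratio scaling gave 0.86 and equal FPKM sums gave 0.83, so the call at 2-fold was lost under both while the adjusted p stayed at 0.00437 and 0.00525 in limma.

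PTGES2, the membrane-associated synthase (ENSSSCG00000022655, chromosome 1 from 268581835 to 268590836), had 6.12, 6.43 and 5.54 FPKM in PEFs and 8.16, 7.08 and 9.19 FPKM in piPSCs. The piPSC values were all above the PEF values, by less than 2-fold in each line. The log2 fold change of 0.37 (SE 0.17, 95% interval -0.04 to 0.79, limma adjusted p = 0.113) did not pass the test. In all, 6 of the 8 tested members had groups that did not overlap, against 64.1% of all tested genes. Of these, 4 lay below (26.8% of all tested genes) and 2 above (37.3%).

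The make-up of the PGE synthase transcripts was turned over between the groups. PTGES took 82.3%, 80.4% and 91.4% of the summed FPKM of PTGES, PTGES2 and PTGES3 in PEF5, PEF7 and PEF8, and 3.27%, 2.03% and 4.23% in piPSC5, piPSC7 and piPSC8. PTGES3 took 16.3%, 17.9% and 7.89% in PEFs and 92.0%, 93.2% and 90.7% in piPSCs. The sum itself was 455, 388 and 813 FPKM in PEFs and 174, 149 and 180 FPKM in piPSCs. These shares are a description of transcript levels, and no enzyme activity was measured.

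**Figure D2:**
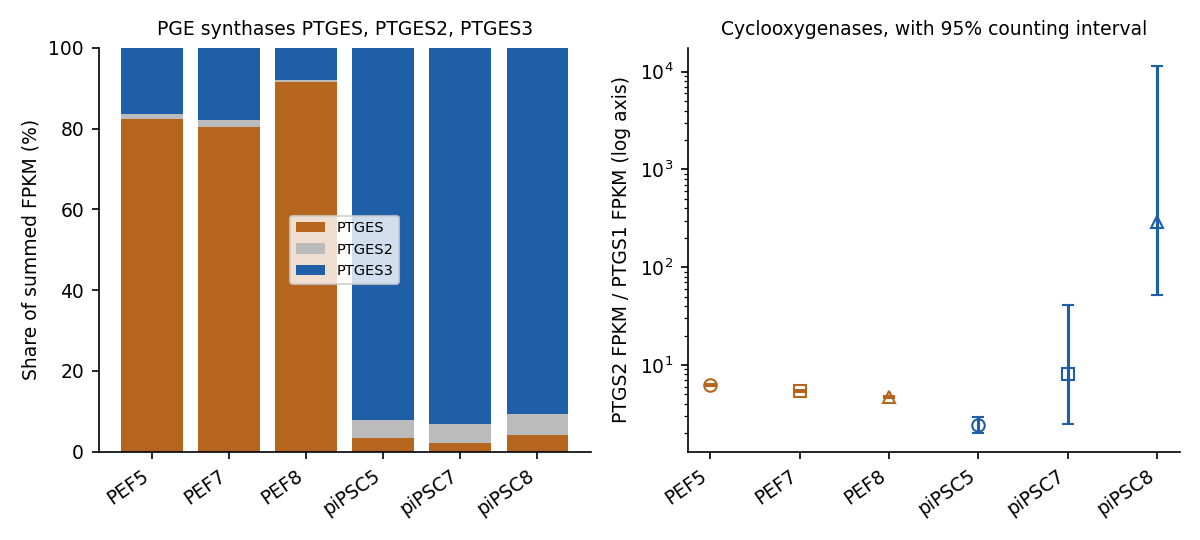
Left, the share in percent of PTGES (brown), PTGES2 (grey) and PTGES3 (blue) in the summed FPKM of the 3 PGE synthase genes in each library, and right, the ratio of PTGS2 to PTGS1 FPKM on a log axis with exact 95% counting intervals. PTGES makes up 80.4% to 91.4% in PEFs and 2.03% to 4.23% in piPSCs, while the cyclooxygenase ratio runs from 4.67 to 6.25 in PEFs and from 2.43 to 288 in piPSCs.

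PTGIS, prostacyclin synthase (ENSSSCG00000007463, chromosome 17 from 51153155 to 51200273), was low in both groups. The PEF libraries had 37, 53 and 11 fragments of it (0.396, 0.605 and 0.139 FPKM), and the piPSC libraries 17, 19 and 1 (0.215, 0.305 and 0.0173 FPKM). The groups overlapped. The mean level fell short of the 0.5 FPKM needed for the test.

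Of the 3 receptor genes, PTGFR was called and PTGER2 and PTGER4 were not. PTGFR, the receptor of prostaglandin F2-alpha, which signals through Gq (ENSSSCG00000039548, chromosome 6 from 134727342 to 134776763), had 5.54, 5.51 and 9.11 FPKM in PEF5, PEF7 and PEF8 and 0.173, 0.0337 and 0 FPKM in piPSC5, piPSC7 and piPSC8. The fragments were 494, 460 and 689 against 13, 2 and 0, so that each piPSC library was close to or at 0. PTGFR changed by -2.82 (SE 0.25, 95% interval -3.43 to -2.22, limma adjusted p = 0.00046) as log2(FPKM + 1), which understates the change of a low gene, and -7.26 with voom on the recovered fragments.

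PTGER2, listed for the EP2 receptor of PGE2, which raises cyclic AMP through Gs (ENSSSCG00000021862, chromosome 1 from 181955298 to 182009953), differed in direction between the lines. It had 3.46, 2.14 and 4.35 FPKM in PEF5, PEF7 and PEF8 and 1.17, 7.65 and 1.15 FPKM in piPSC5, piPSC7 and piPSC8. piPSC7 was above every PEF library and the other piPSC libraries were below every one. Limma gave -0.30 on the log2 scale (SE 0.57, 95% interval -1.67 to 1.08, adjusted p = 0.682), and without piPSC7 it was -0.96 (limma adjusted p = 0.0423). The span of this gene model takes in 2 RefSeq genes, PTGDR (181953506 to 182006375), which encodes a prostaglandin D2 receptor, and PTGER2 (181993961 to 182009959), so fragments of these receptors cannot be told apart here.

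PTGER4, the EP4 receptor of PGE2, also coupled to Gs (ENSSSCG00000024439, chromosome 16 from 25670862 to 25686551), had 0.381, 0.215 and 2.05 FPKM in PEFs and 0.266, 0.135 and 0.708 FPKM in piPSCs. Both groups were highest in line 8, the groups overlapped, and each piPSC line was below its own PEF line. The log2 fold change of -0.35 (SE 0.41, 95% interval -1.32 to 0.62, limma adjusted p = 0.489) did not pass the test, on 18 to 155 fragments in PEFs and 8 to 39 in piPSCs. PTGER4 reached the mean needed for the test only through PEF8. Without PEF8, and with a mean of at least 1 FPKM required, PTGER4 was not tested. HPGD, the enzyme that inactivates PGE2 and related prostaglandins (ENSSSCG00000009699, chromosome 14 from 15718522 to 15763710), was near 0 throughout, with 15, 0 and 4 fragments in the PEF lines and 0, 0 and 13 in the piPSC lines. Lines 5 and 8 moved in opposite directions, and line 7 had 0 fragments in both groups. The 0 fragments of piPSC5 allow up to 3, or 23.7% of the PEF5 level, and piPSC8 had 447% of the PEF8 level (exact 95% counting interval 138% to 1882%). The groups overlapped, and HPGD was too low for the test between them.

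**Figure D3:**
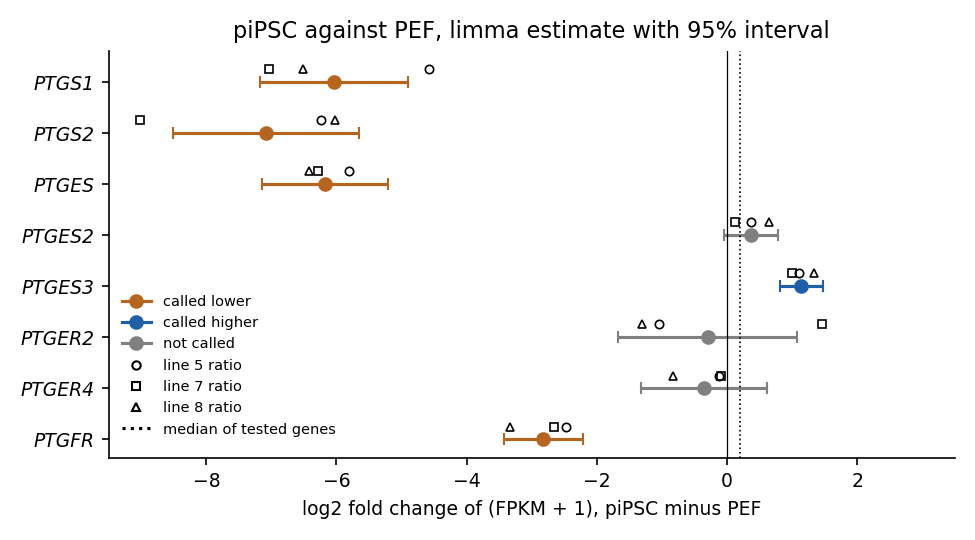
Log2 fold change of (FPKM + 1) between piPSCs and PEFs for the 8 tested genes, with the limma estimate and its 95% interval as filled points and bars, the ratio of each line as open symbols, and the median of all tested genes (0.20) as a dotted line. The intervals of PTGS1, PTGS2, PTGES and PTGFR lie wholly below 0 and that of PTGES3 above 0, while the line ratios of PTGER2 fall on both sides of 0.

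In order of mean level, the fibroblasts had PTGS2 (537 ± 178 FPKM), PTGES (477 ± 233), PTGS1 (100.01 ± 34.5), PTGES3 (69.3 ± 5.05), PTGFR (6.72 ± 2.07), PTGES2 (6.03 ± 0.451), PTGER2 (3.32 ± 1.11), PTGER4 (0.881 ± 1.01), PTGIS (0.380 ± 0.234) and HPGD (0.0567 ± 0.0662; SD, n = 3). Neighbours in this order whose means lay within the larger SD of the pair were PTGS2 and PTGES, PTGS1 and PTGES3, PTGFR and PTGES2, and PTGER4 and PTGIS. In the piPSCs PTGES3 came first (154 ± 13.4 FPKM), then PTGES2 (8.14 ± 1.06), PTGES (5.45 ± 2.31), PTGS2 (3.64 ± 2.80) and PTGER2 (3.33 ± 3.75). PTGS1 (0.692 ± 1.13), PTGER4 (0.370 ± 0.301), PTGIS (0.179 ± 0.147), PTGFR (0.0689 ± 0.0917) and HPGD (0.0606 ± 0.105; SD, n = 3) followed, and from PTGES downwards each mean lay within the larger SD of the next. PTGES3 and PTGES2 stood apart from the genes below them by more than that SD.

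What remained of the genes that fell differed from line to line and from gene to gene. PTGS1 remained at 2.84% of its own PEF level in piPSC5 (exact 95% counting interval 2.39% to 3.36%), 0.0394% in piPSC7 (0.00812% to 0.115%) and 0.0213% in piPSC8 (0.000539% to 0.119%). PTGS2 remained at 1.10%, 0.0588% and 1.32%, with counting intervals of 1.000% to 1.22%, 0.0394% to 0.0844% and 1.18% to 1.46%. Thus piPSC8 was low for PTGS1, together with piPSC7, and high for PTGS2, together with piPSC5. PTGES was nearly even over the lines, at 1.52%, 0.971% and 1.03%. PTGFR remained at 3.12% and 0.611% in piPSC5 and piPSC7, and its 0 fragments in piPSC8 allow up to 0.599% of the PEF8 level. The median of the 12 fibroblast markers was 3.67% in line 5, 1.03% in line 7 and 0.442% in line 8. Whether residual fibroblasts or the mouse feeder cells contributed was not tested. These intervals cover counting error only, and fragments copied by PCR are not independent molecules.

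**Figure D4:**
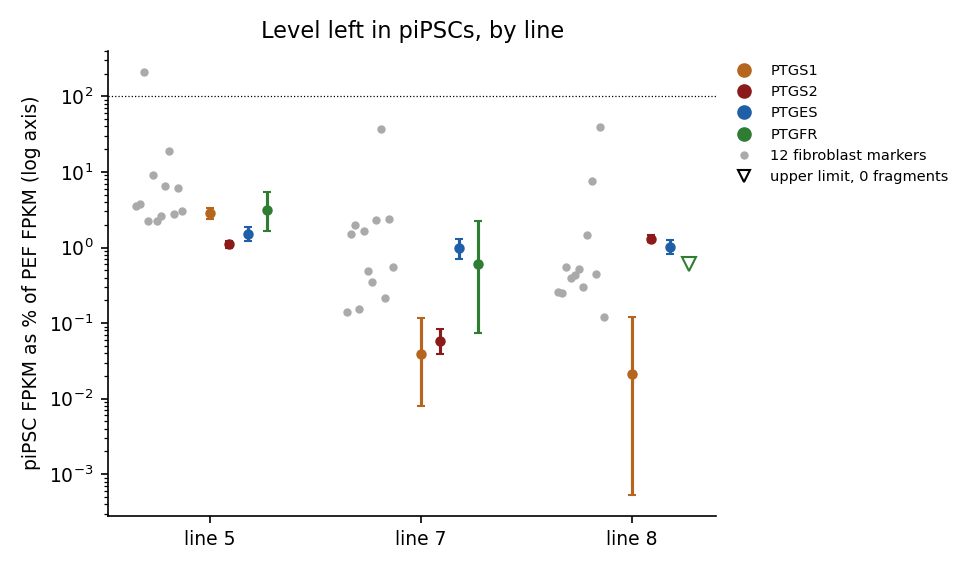
Level in each piPSC line as a percentage of the level in the PEF line it came from, on a log axis, for PTGS1, PTGS2, PTGES and PTGFR with 95% counting intervals, for 12 fibroblast markers as grey dots, and with an open triangle for the upper limit at 0 fragments. PTGES lies between 0.971% and 1.52% in the 3 lines, whereas PTGS1 runs from 2.84% in line 5 to 0.0213% in line 8 and PTGS2 is lowest, at 0.0588%, in line 7.

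The genes most like PTGS1 and PTGS2 were found by the root mean square difference of log2(FPKM + 1) over the 6 libraries, each gene centred on its own mean, among 11411 genes with a symbol. For PTGS1 these were BGN (0.209), PLAUR (0.303), CLMP (0.325), MMP14 (0.345) and IGFBP4 (0.376). For PTGS2 they were AEBP1 (0.664), PRRX2 (0.748), MAMDC2 (0.787), STC1 (0.808) and AREG (0.818), all farther off than the 5 of PTGS1. PTGES lay at 0.779 from PTGS1 and at 0.848 from PTGS2, and PTGS1 and PTGS2 lay at 0.868 from each other. In order of likeness to PTGS1, PTGES came at place 64 and PTGS2 at place 84. For PTGS2, PTGES came at place 8 and PTGS1 at place 10.

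The other genes of the pathway were read from 6 lists holding 92 symbols, of which 73 were in the table and 60 were tested. In piPSCs 20 were called lower (33.3%), 5 higher (8.33%) and 35 not called, against 16.7% lower and 20.2% higher over all tested genes. The median log2 fold change was -0.51, against 0.20 over all tested genes. Without PEF5 the number called lower was 13, with 14.9% of all genes called lower in that fit, and without piPSC5 it was also 13, with 14.8%. Of the 25 calls, 16 held under every alternative and 9 were lost under at least 1. The 9 were MGLL, PTGIR, TBXA2R, CYSLTR2, DPEP1, GNAI2, ADCY6, ADCY7 and PRKAR1A.

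Upstream of the cyclooxygenases, genes of arachidonate release and re-uptake gave 4 lower (26.7%, against 16.7% of all tested genes) and 1 higher (6.67%, against 20.2%) of 15 tested. PLA2G4A, the cytosolic phospholipase A2 that frees arachidonate, had 213, 162 and 152 FPKM in PEF5, PEF7 and PEF8 and 18.8, 12.1 and 30.1 FPKM in piPSC5, piPSC7 and piPSC8, and the gene fell by 3.12 on the log2 scale (SE 0.32, limma adjusted p = 0.000729). In RefSeq this gene (chromosome 9 from 127853581 to 128164825) overlaps the span of PTGS2 on the opposite strand, and the gene model of PLA2G4A in the files (127920829 to 128162638) does not. ACSL4, an acyl-CoA synthetase that prefers arachidonate, fell from 387, 199 and 137 FPKM to 10.4, 13.7 and 14.6 FPKM (limma adjusted p = 0.000514). ACSL1, with a broader choice of fatty acids, rose by 1.34 on the log2 scale (limma adjusted p = 0.0141). MBOAT7, which puts arachidonate into phosphatidylinositol, had -0.42 (limma adjusted p = 0.0514). The other 2 lower genes of this list were LPCAT2 (-2.87) and MGLL (-1.76), and the call on MGLL was lost with voom and without PEF5, PEF7, piPSC5, piPSC7 or piPSC8 (limma adjusted p from 0.0513 to 0.0818).

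Among 3 tested terminal synthases outside the members, 1 was called lower (33.3%, against 16.7% of all tested genes) and none higher. AKR1B1, an aldose reductase that also has prostaglandin F synthase activity, had 448, 207 and 1079 FPKM in PEFs and 22.0, 20.6 and 29.1 FPKM in piPSCs. It fell by 4.24 on the log2 scale (SE 0.56, limma adjusted p = 0.00152). PRXL2B, another prostaglandin F synthase, had 0.94 (limma adjusted p = 0.0922, and 1.30 with 0.0245 without piPSC8) and GSTM3, a glutathione transferase, 0.05 (limma adjusted p = 0.977). AKR1C1 of this list was not found by symbol. The unnamed gene ENSSSCG00000011147 spans 6 RefSeq entries, AKR1C1 among them, whose fragments cannot be told apart. It had 39.2, 43.5 and 11.6 FPKM in PEFs and 0.382, 0.0907 and 0.0327 FPKM in piPSCs. Its log2 fold change was -4.61 (limma adjusted p = 0.000788), and it is outside the counts above. HPGDS, the haematopoietic prostaglandin D synthase, was at 0 in every library but piPSC8, where 1 fragment gave 0.127 FPKM.

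Of 6 genes tested in the list of other prostanoid receptors, 3 were called lower (50.0%, against 16.7% of all tested genes) and none higher. The list takes in the nuclear receptors PPARG and PPARD and also PTGFRN, so this is not a share of prostanoid receptors alone. The thromboxane receptor gene TBXA2R had -1.53 on the log2 scale (limma adjusted p = 0.0314), the prostacyclin receptor gene PTGIR -1.45 (limma adjusted p = 0.0476) and PPARD, a nuclear receptor for fatty acids and their derivatives, -1.24 (limma adjusted p = 0.00907). The call on PTGIR was lost under 8 alternatives, among them the replicate block by line (limma adjusted p = 0.060), and each piPSC library had 0 or 1 fragment of it. For TBXA2R, leaving out PEF5, piPSC5, piPSC7 or piPSC8 gave limma adjusted p values of 0.0538, 0.0847, 0.0589 and 0.0652. With voom the log2 fold change of TBXA2R was -4.32. PPARG, a nuclear receptor of 15-deoxy-prostaglandin J2, had -1.51 (limma adjusted p = 0.103). With a pseudocount of 0.1 it was called, at -3.46 (limma adjusted p = 0.0329), and with voom at -4.38 (0.0440). PTGFRN, a regulator of PTGFR, had 0.61 (limma adjusted p = 0.661). PTGER3, the Gi-coupled EP3 receptor, is named here because of its values. piPSC8 had 105 fragments of it (5.36 FPKM) and each of the other libraries 1 to 8, and the log2 fold change was 0.84 (limma adjusted p = 0.337).

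Genes listed under transport and breakdown gave 3 lower and 1 higher of 9 tested, where all tested genes gave 16.7% lower and 20.2% higher. The list includes CBR4 and CYP4F22, whose part in prostaglandin breakdown was not examined. CBR4, a carbonyl reductase, rose by 1.46 (limma adjusted p = 0.00171), while SLCO3A1 (-1.98), CBR3 (-1.52) and CYP4F22 (-1.69) were lower. PTGR1, a prostaglandin reductase, had -0.85, ABCC4, an exporter of prostaglandins, -0.42, and ZADH2, a reductase of 15-keto-prostaglandins, -0.53, and none of these was called. Without piPSC5, ZADH2 was called lower, at -1.10 (limma adjusted p = 0.0332). In the lipoxygenase branch, which makes leukotrienes from the same precursor, 3 were lower (50.0%) and 1 higher (16.7%) of 6 tested, where all tested genes gave 16.7% and 20.2%. LTA4H, the leukotriene A4 hydrolase, had 43.2, 35.2 and 56.6 FPKM in PEFs and 213, 229 and 250 FPKM in piPSCs and rose by 2.35 (SE 0.20, limma adjusted p = 0.000416). ALOX15, a 15-lipoxygenase, fell by 2.11 as log2(FPKM + 1) (limma adjusted p = 0.000986), and voom gave -4.40. Its mean was 4.26 FPKM in PEFs and 0.202 FPKM in piPSCs. CYSLTR2, a cysteinyl leukotriene receptor, fell by 1.28 as log2(FPKM + 1), from a mean of 1.87 to 0.0940 FPKM. Its limma adjusted p was 0.0273, and 0.0632, 0.0634 and 0.0567 without piPSC5, piPSC7 or piPSC8. ALOX5AP, which presents arachidonate to 5-lipoxygenase, had -0.56 (limma adjusted p = 0.422) and was called lower without piPSC7, at -1.17 (0.0435). The third lower gene was DPEP1 (-1.07), whose call was lost with quantile normalization (-0.92) and without piPSC5 (limma adjusted p = 0.0637).

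Downstream of the receptors, 6 genes were lower (28.6%) and 2 higher (9.52%) of 21 tested, and over all tested genes these shares were 16.7% and 20.2%. PRKAR1A, a regulatory subunit of protein kinase A, fell by 1.02 on the log2 scale (limma adjusted p = 0.00212), close to the 2-fold threshold. It was under that threshold with quantile normalization (-0.98), without PEF8 (-0.93) and without piPSC8 (-0.95). The cyclic AMP phosphodiesterase genes PDE4B and PDE4A fell by 3.44 and 2.63. GNAI2, an inhibitory G protein subunit, had -1.46 (limma adjusted p = 0.0442). The call on GNAI2 was lost with the line as a replicate block (0.0617), with no filter (0.0754) and without PEF5 (0.0996), PEF7 (0.0939), PEF8 (0.110) or piPSC5 (0.0787), all limma adjusted p values, and without piPSC8 its log2 fold change was -0.88, less than 2-fold. The adenylyl cyclase genes ADCY6 (-2.42) and ADCY7 (-1.86) were also lower. The call on ADCY6 was lost under 7 alternatives, with the replicate block among them (limma adjusted p = 0.0533), and that on ADCY7 without PEF5, PEF8, piPSC5 or piPSC7 (0.0642 to 0.0845). The higher genes were RAPGEF4, a cyclic AMP-activated exchange factor (3.24, limma adjusted p = 0.000325), and ARRB2, a beta-arrestin (1.46, limma adjusted p = 0.00433). ATF1, a cyclic AMP-responsive transcription factor, had 0.55 (limma adjusted p = 0.0141), less than 2-fold, and GNAI1 -0.58 (limma adjusted p = 0.0677).

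**Figure D5:**
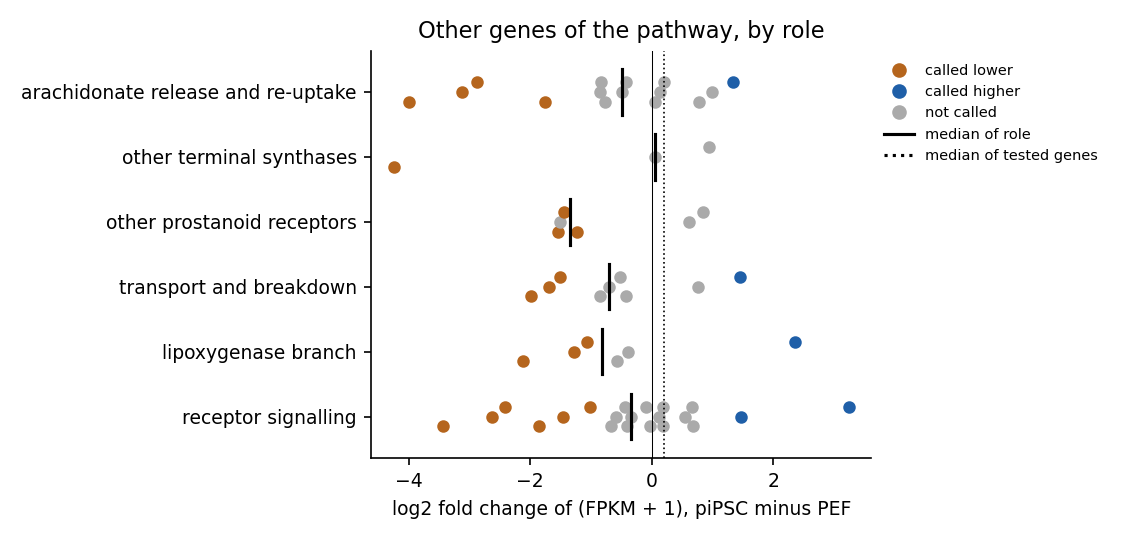
Log2 fold change of (FPKM + 1) between piPSCs and PEFs for each of the 60 tested genes of 6 roles, with genes called lower in brown, called higher in blue and not called in grey, a black bar at the median of the role and a dotted line at the median of all tested genes (0.20). The 20 lower genes are spread over all 6 roles, and the 5 higher genes lie in 4 of them.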

How the data were processed

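Poly-A RNA of 3 PEF and 3 piPSC lines was read as paired ends. The submitters' processing notes name HISAT2 2.1.0, HTSeq 0.6.0, Bowtie2 2.2.3 and the build Sscrofa11.1, and the annotation release is not given in the sources used here. The authors deposited FPKM values per gene. The values were whole multiples of 1 fragment for all 18007 genes (tolerance at most 0.05 fragments), and fragments were recovered from them, which on simulated data was exact for 468 of 481 genes. An exact 0 was read as 0 fragments.

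The groups were compared with limma 3.58.1 in R 4.3.3 (lmFit, eBayes with a trend) on log2(FPKM + 1) over the 12428 genes that averaged 0.5 FPKM or more, two-sided, and p values were adjusted over these genes by Benjamini-Hochberg. Simulated data for this comparison (12428 genes, 200 with planted changes) gave calls on 128 planted genes and 7 more. The simulation gave every gene the same dispersion, and some planted changes were under the 2-fold threshold. These counts therefore do not measure the error rate of the calls made here. PEF and piPSC libraries are paired by line. In lines 5, 7 and 8 the paired libraries' residuals about their group means correlated at 0.0921, 0.0946 and 0.0800. The block by line was an alternative. The study's general statistics name an unpaired test, and its methods give no test for the RNA-seq comparison, which it made line by line. The members, the gene lists, the motifs and the tests were chosen with earlier results of these data known. Named genes were the 10 members, the 4 genes of each role with the highest mean FPKM and the 5 genes most like PTGS1 and PTGS2. PTGER3 and called genes named beside these were picked after their values were seen. Counting intervals are exact binomial (95%). Other values were computed with Python 3.11.15, scipy 1.17.1, pandas 2.3.3 and numpy 2.4.6. Promoters were read from the RefSeq genome and annotation of the same build.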

Additional observations from a re-analysis of the deposited data

Results flagged for a closer look

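PTGER2 moved at least 2-fold in opposite directions in the lines. The log2 ratio of (FPKM + 1) between a piPSC line and its own PEF line was -1.04 in line 5 and -1.31 in line 8, against 1.46 in line 7. The fragments behind these ratios were 558 and 159 in line 5, 324 and 823 in line 7 and 596 and 115 in line 8, in PEFs and piPSCs. With 1 library per line in each group, the difference between the lines was not tested. The gene model covers the RefSeq genes PTGDR and PTGER2, whose part in the difference cannot be told apart.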

How the results depend on the processing

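The calls on PTGS1, PTGS2, PTGES and PTGFR held under each of the 15 alternatives: the replicate block, a pseudocount of 0.1, no filter, a mean of at least 1 FPKM, quantile normalization, both rescalings, no trend, voom on fragments and leaving out each library. With the line as a replicate block, 5 members were called, as without it, and 4485 of all tested genes against 4575. With the block, the calls on GNAI2, PTGIR and ADCY6 were lost, PRXL2B (adjusted p = 0.0227) and GNAI1 (0.0412) passed the limma test, and 17 pathway genes were called lower. The number of members called higher was 1, and 0 after rescaling to the median ratio or to equal sums, which move the median log2 fold change of all genes from 0.20 to -0.02 and -0.06. Over all genes, 2505 were higher and 2070 lower as deposited, 1868 and 2559 after the first rescaling, and 1986 and 2815 after the second. Pathway genes called lower ran from 13 to 17 when 1 library was left out (20 with all). The PTGS2 to PTGS1 log2 ratio differed by -1.05, by 0.44 with a pseudocount of 0.1, and by -1.71 to -0.59 with 1 library left out. Log2 fold changes that turned in sign belonged to genes that did not pass the test: PTGER2 ran from -0.96 to 0.038, GSTM3 from -1.15 to 1.19 and PTGFRN from -0.13 to 1.79 with 1 library left out, and GSTM3 was -0.12 and -0.18 after the rescalings. PTGIS and HPGD were tested only with no filter (log2 fold change -0.22, adjusted p = 0.339, and 0.0026, adjusted p = 0.984, in limma). Low counts limit PTGIS, HPGD and PTGER4 and the PTGS1 level of piPSC7 and piPSC8.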
